A study of Mus musculus with 11 samples.

Results

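This account follows 10 genes of the cartilage precursor programme through RNA-seq of mouse forelimb buds: Sox9, Sox5, Sox6, Col2a1, Col9a1, Col11a1, Hapln1, Gdf5, Runx2 and Matn4. They were chosen by name, and each was found as 1 gene name among the 47517 in the count table. The study asked what loss of Gmnn, which encodes the DNA replication licensing inhibitor and chromatin regulator geminin, does in the developing limb. Forelimb buds came from embryos on a C57BL/6 background at stage E10.5. The 5 control libraries were Gmnn +/f; Prx-Cre, with 1 floxed and 1 wild-type allele, and the 6 mutant libraries were Gmnn f/f; Prx-Cre, with both alleles floxed. Every embryo carried Prx-Cre, which is driven by a Prrx1 enhancer and is active in early limb mesenchyme, so the controls are heterozygous for the deletion there, and ectoderm and vessels of the bud are not its main targets. The embryos fell into 4 litters, called A to D here. Litter A gave controls 1 and 2 and mutants 1 and 2, litter B gave control 3 and mutant 6, litter C gave control 4 and mutant 5, and litter D gave control 5 and mutants 3 and 4.

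As background, limb cartilage starts as a condensation of mesenchyme. SOX9 is the transcription factor that commits these cells to the chondrocyte fate, and it switches on Sox5 and Sox6, whose proteins work with it at enhancers of the matrix genes. Type II collagen (Col2a1) is the main fibril of cartilage, types IX (Col9a1) and XI (Col11a1) sit on and in those fibrils, and Hapln1 encodes the link protein that ties aggrecan to hyaluronan. Gdf5 marks the future joint, Runx2 is the master regulator of bone and of late chondrocytes, and Matn4 encodes a matrilin, an adaptor of the matrix. At this stage the bud holds early precursors and little or no differentiated cartilage.

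Total counts ran from 14721181 to 19733288 per library. All 10 limb mesenchyme markers passed the filter on low counts, among them Tbx5, the forelimb determinant. Gmnn was 150.3, 199, 139, 171 and 239 CPM (counts scaled to the library total) in controls 1 to 5 and 103, 138, 119, 130, 102 and 99.5 CPM in mutants 1 to 6. No mutant reached the lowest control, and the log2 difference was -0.67 (SE 0.10, edgeR quasi-likelihood adjusted p 0.0291), with mutants lower in 4 of 4 litters. The sign held in all 25 alternatives, and the call was lost in 13 of them, with an edgeR adjusted p of up to 0.143, among them the fits without control 2, 3 or 4 or without any 1 of mutants 1, 3, 4, 5 and 6. Counts cover all exons, so recombined and intact alleles are not separated. Adjusted p-values below cover all 15821 genes tested, and the threshold was 0.05. In bulk tissue, fewer cells of a type and less RNA per cell cannot be told apart.

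RefSeq promoter windows matched 7 of the 10 genes, while Sox9, Col2a1 and Gdf5 had no window. The 250 bases before the start site are shown, on the gene's strand in GRCm38.p6, for Sox5 and Col9a1, whose levels were most closely related to Sox9 across libraries, and for Col11a1, which showed no such relation past the test. Each window was searched on both strands for ACAAT and ACAAAG, short forms of the sequence that Sox factors bind; neither contains the other, and matches are in capitals.

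Sox5, chr6:143947107-143947356, minus strand: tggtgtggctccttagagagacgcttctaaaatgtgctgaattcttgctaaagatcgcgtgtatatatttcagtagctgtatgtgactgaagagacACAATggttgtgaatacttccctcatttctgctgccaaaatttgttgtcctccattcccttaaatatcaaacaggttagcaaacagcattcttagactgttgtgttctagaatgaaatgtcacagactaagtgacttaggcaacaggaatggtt
Col9a1, chr1:24177360-24177609, plus strand: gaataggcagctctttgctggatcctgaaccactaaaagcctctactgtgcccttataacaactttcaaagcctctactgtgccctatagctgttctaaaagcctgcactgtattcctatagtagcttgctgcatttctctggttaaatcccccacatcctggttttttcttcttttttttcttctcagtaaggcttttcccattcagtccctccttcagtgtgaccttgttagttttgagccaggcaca
Col11a1, chr3:114030290-114030539, plus strand: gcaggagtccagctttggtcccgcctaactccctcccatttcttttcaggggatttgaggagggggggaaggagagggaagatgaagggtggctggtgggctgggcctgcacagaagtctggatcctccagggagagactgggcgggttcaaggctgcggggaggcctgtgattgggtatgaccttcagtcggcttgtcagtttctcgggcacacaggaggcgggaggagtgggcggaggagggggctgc

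The Sox5 window has 1 ACAAT, whose first base lies at -154 from the start site, and no ACAAAG. This start site lies inside the annotated gene, far downstream of its 5' end. Neither motif occurs in the Col9a1 or the Col11a1 window. Of the other windows, those of Hapln1 and Runx2 hold 1 ACAAT each and that of Sox6 1 ACAAAG, while that of Matn4 has neither. Matches thus stood in windows of genes with a relation to Sox9 past the test (Sox5, Runx2) and without one (Sox6, Hapln1). Among 32817 windows of this length, 27.7% hold ACAAT, 16.5% hold ACAAAG and 38.8% hold at least 1 of them, so a single match is common, and these windows leave out the distant enhancers through which SOX9 acts. GC content was 39.6% for Sox5, 43.6% for Col9a1 and 62.4% for Col11a1.

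The 10 genes spanned a wide range of levels. Per kilobase of exon, Sox9 had the highest mean, at 17.3 CPM per kilobase (SD 10.6, n = 11). Hapln1 followed at 11.1 (SD 2.49) and Col2a1 at 7.22 (SD 1.49), with Sox9 above Hapln1 in 9 of 11 libraries and Hapln1 above Col2a1 in 10 of 11. Col9a1 stood at 3.03 (SD 1.58), Col11a1 at 1.58 (SD 0.27), Sox5 at 1.53 (SD 0.44), Sox6 at 0.66 (SD 0.21) and Runx2 at 0.54 (SD 0.50), all in CPM per kilobase. The steps from Hapln1 to Col2a1, from Col2a1 to Col9a1 and from Sox5 to Sox6 were larger than the wider SD of each pair. All other neighbours in the order differed by less than that. Col11a1 and Sox5 lay closest, with Col11a1 higher in 7 of 11 libraries.

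**Figure D1:**
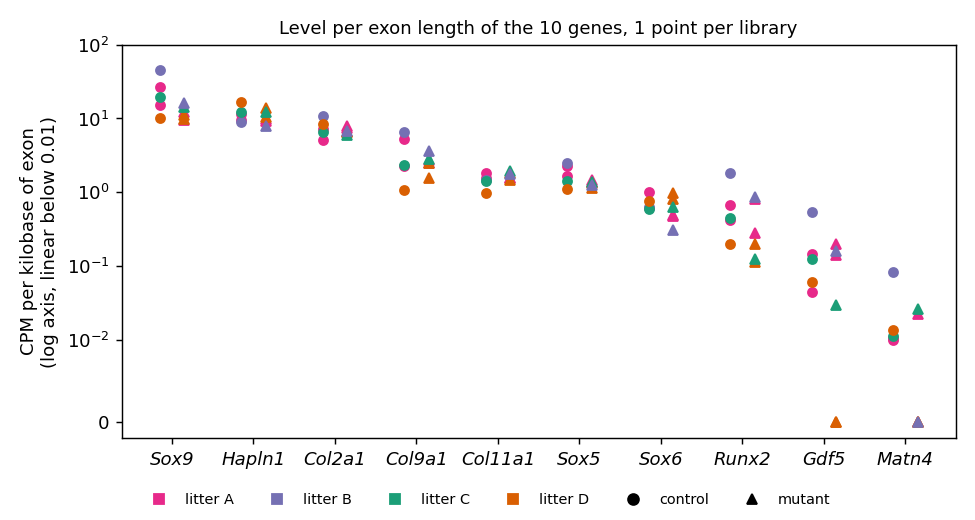
Level of each gene in CPM per kilobase of exon (log axis, linear below 0.01), with 1 point per library, circles for the 5 controls, triangles for the 6 mutants and colour for litter. Sox9, Hapln1 and Col2a1 lie at the top, and Gdf5 and Matn4, with 58 and 16 reads over all libraries, at the bottom.

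Gdf5 and Matn4 were too low to test. Gdf5 had 38 reads in the 5 controls together and 20 in the 6 mutants, and 23 of the control reads came from control 3. Matn4 had 12 reads in controls, 8 of them in control 3, and 4 in mutants. For Gdf5, 2 mutants had no read, and for Matn4, 4 had none; 3 counts, the limit that a count of 0 allows, correspond to 0.154 to 0.21 CPM depending on the library (counting error only). Outside control 3, no library had more than 8 reads of the joint marker or more than 2 of the matrilin. In addition, 40.3% of Gdf5 exon bases are shared with Gm15557 on the opposite strand, in a later GENCODE release than that used for the counts. Reads were counted without regard to strand.

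Of the 8 genes tested, 0 passed the threshold for mutant against control, against 2.18% of all genes tested (1.48% lower and 0.702% higher in mutants). At an unadjusted p under 0.05 by the same edgeR test there was 1 (Sox9), against 21.4% of all genes. The fitted difference was negative for 7 genes and positive for 1, Col11a1, with a median of -0.26 on the log2 scale against 0 for all genes. In 0 of the 8 did the 2 groups separate without overlap in CPM, against 2.59% of all genes.

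**Figure D2:**
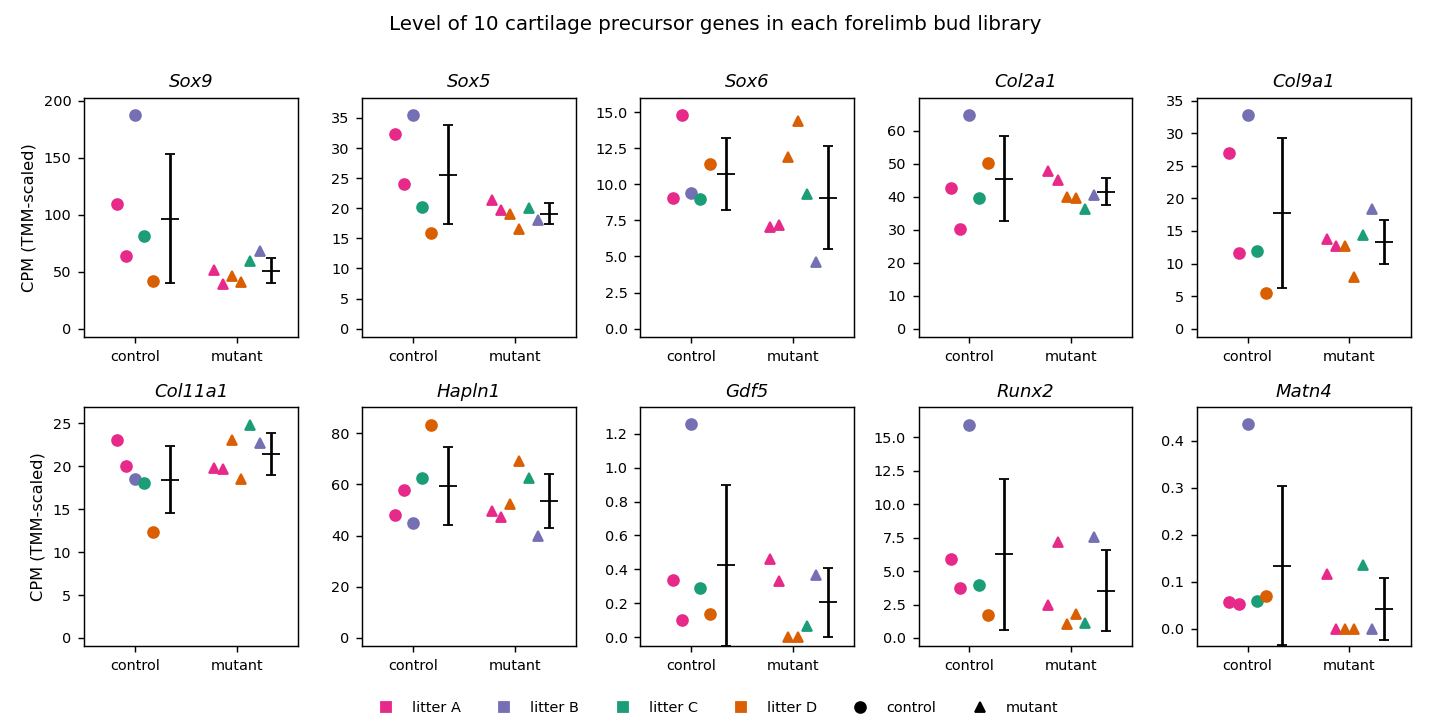
CPM (scaled by TMM factors) of the 10 genes, 1 panel per gene with its own axis, in 5 control (circles) and 6 mutant (triangles) libraries coloured by litter; the bar beside each group is the mean with 1 SD. Control 3, of litter B, is the highest control in 7 panels, and the mutants overlap the controls in every panel.

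Sox9, which directs condensed mesenchyme to the cartilage fate, had the largest fitted difference of the 8. It stood at 109.5, 63.4, 187, 81.7 and 41.5 CPM in controls 1 to 5 and at 51.2, 39.6, 45.9, 40.7, 59.0 and 67.7 CPM in mutants 1 to 6. Controls 1, 3 and 4 lay above every mutant, control 2 lay below mutant 6 alone, and control 5 lay among the lowest mutants. The log2 difference was -0.72 (SE 0.20, 95% interval -1.16 to -0.28), a level 0.607 times that of controls, with an unadjusted p of 0.00367 and an edgeR adjusted p of 0.0725. Of all genes tested, 5.06% had a p as small or smaller. Without control 5 the difference was -0.95 (edgeR adjusted p 0.0249), and without control 3 it was -0.53 (adjusted p 0.267). Without mutant 6, the other bud of litter B, it was likewise -0.53 (edgeR adjusted p 0.272), since either bud alone leaves that litter with no pair.

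The controls spread more widely than the mutants for Sox9: the SD was 56.5 CPM around a mean of 96.7 in controls (n = 5) and 11 around 50.7 in mutants (n = 6). By litter, the mutant minus control difference in mean log2 CPM was -1.47 in litter B, -0.89 in litter A, -0.47 in litter C and 0.06 in litter D. Mutants were thus lower in 3 of 4 litters, and the exception was the litter of control 5.

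Sox5, a partner that SOX9 needs at matrix enhancers, was 32.3, 24.0, 35.4, 20.3 and 15.8 CPM in controls 1 to 5 and 21.3, 19.8, 19.0, 16.5, 20.02 and 17.98 CPM in mutants 1 to 6. Controls 1, 2 and 3 stood above all mutants, control 4 lay within their range and control 5 was the lowest library of all. The log2 difference of -0.33 (SE 0.15) did not pass (edgeR adjusted p 0.237). In litter B it was -0.97 and in litter A -0.44, while it was -0.02 in litter C and 0.16 in litter D.

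Sox6, the other partner, showed a different order of libraries. Its level was 9.06, 14.8, 9.38, 8.95 and 11.4 CPM in controls 1 to 5 and 7.06, 7.21, 11.9, 14.4, 9.29 and 4.601 CPM in mutants 1 to 6. Both mutants of litter D were high, and mutant 6 of litter B was the lowest. The fitted difference was -0.41 (SE 0.20, edgeR adjusted p 0.266), with litter values of -1.01 (litter B), -0.69 (litter A), 0.05 (litter C) and 0.19 (litter D). All 3 Sox genes therefore had their lowest litter difference in litter B and their highest in litter D.

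Col2a1, the collagen that SOX9 is best known to activate, hardly differed between the group means. Its level was 42.6, 30.3, 64.7, 39.5 and 50.2 CPM in controls 1 to 5 and 47.8, 45.1, 39.8, 39.7, 36.3 and 40.5 CPM in mutants 1 to 6. The 6 mutants lay within the range of the controls, between control 2 at the bottom and control 3 at the top. The log2 difference was -0.10 (SE 0.14, 95% interval -0.41 to 0.21, edgeR adjusted p 0.729). That interval still allows a fall of about the size fitted for Sox5. Without control 3 the sign turned, to 0.03.

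Col9a1, the collagen that decorates type II fibrils, varied most between libraries of the 4 matrix genes tested, with the highest library 5.99 times the lowest. It was 26.9, 11.7, 32.8, 11.9 and 5.47 CPM in controls 1 to 5 and 13.8, 12.8, 12.6, 7.91, 14.4 and 18.4 CPM in mutants 1 to 6. Controls 1 and 3 stood above all other libraries and control 5 below them all. The log2 difference was -0.15 (SE 0.27, edgeR adjusted p 0.803), and it was 0.14 without control 1 and 0.04 without control 3. Litter values ran from -0.83 in litter B to 0.86 in litter D.

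Col11a1, which seeds the core of the fibrils, was the one gene of the 8 with a positive fitted difference. It was 23.1, 20.1, 18.5, 18.01 and 12.4 CPM in controls 1 to 5 and 19.8, 19.7, 23.1, 18.5, 24.9 and 22.8 CPM in mutants 1 to 6. Controls 4 and 5 lay below every mutant, control 5 lowest, and the other 3 controls lay within the range of the mutants. The log2 difference of 0.27 (SE 0.14, 95% interval -0.03 to 0.57) did not pass (edgeR adjusted p 0.28). Mutants were higher in 3 of 4 litters.

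Hapln1, the link protein gene, was 47.9, 57.7, 45.04, 62.7 and 83.5 CPM in controls 1 to 5 and 49.6, 47.4, 52.5, 69.0, 62.5 and 40.0 CPM in mutants 1 to 6. Control 5 and mutant 4 of litter D were highest, mutant 6 was lowest, and control 3 was the lowest control. The log2 difference was -0.20 (SE 0.10, edgeR adjusted p 0.262). Within litters it ran from -0.47 in litter D to 0.00 in litter C.

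Runx2, needed for bone formation, was low and the most variable of the genes tested, with the highest library 15.8 times the lowest. It was 5.87, 3.71, 16.0, 3.95 and 1.75 CPM in controls 1 to 5 and 2.49, 7.21, 1.01, 1.78, 1.09 and 7.55 CPM in mutants 1 to 6. Control 3 was far above the rest, and mutants 2 and 6 lay above 4 of the 5 controls. The fitted log2 difference was -0.59 (SE 0.33, 95% interval -1.32 to 0.13, edgeR adjusted p 0.331). Its litter values ran from -1.75 in litter C to -0.13 in litter A.

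**Figure D3:**
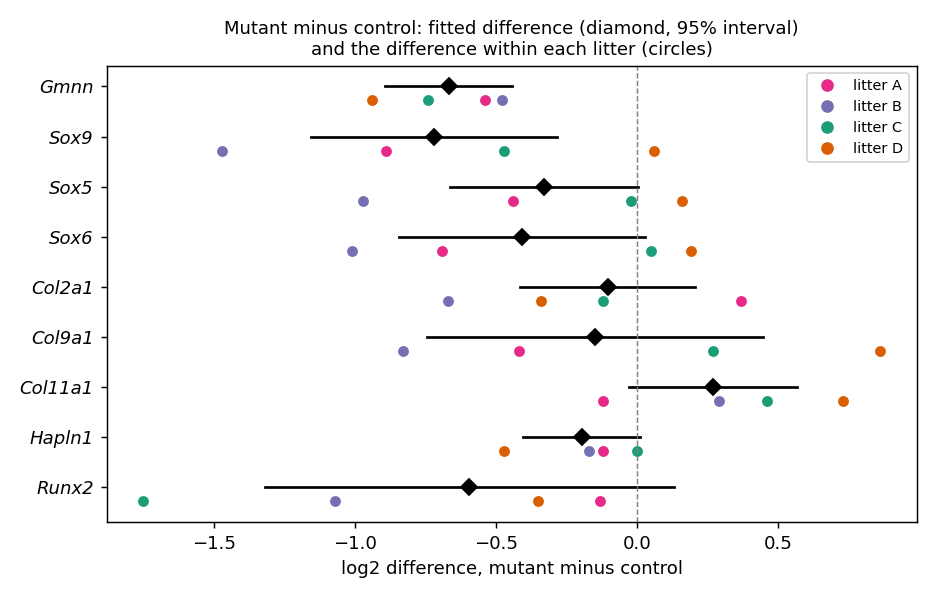
Log2 difference, mutant minus control, for Gmnn and the 8 genes tested: black diamonds give the edgeR fit with its 95% interval, and coloured circles the difference of mean log2 CPM within each of 4 litters. For Sox9 the circles run from -1.47 in litter B to 0.06 in litter D, whereas all 4 Gmnn circles lie below 0.

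Differences between litters were tested as well. On the litter terms together, 0 of 8 passed the threshold, against 0.0885% of all genes. At an unadjusted p under 0.05 by the same edgeR test there were 5 of 8, against 13.5% of all genes: Runx2 (p 0.000422, adjusted p 0.0962), Hapln1 (p 0.00141, adjusted p 0.13), Sox9 (p 0.00567, adjusted p 0.193), Col9a1 (p 0.0196) and Sox6 (p 0.0433). For the genotype by litter interaction, which asks whether the mutant difference itself changed between litters, 0 of 8 passed (0% of all genes did, on 3 residual degrees of freedom). Unadjusted edgeR p-values under 0.05 were found for 3 of 8, against 3.82% of all genes: Col2a1 (p 0.0256), Sox9 (p 0.0358) and Sox5 (p 0.0398), each with an adjusted p of 0.95. A change of the Sox9 difference between litters D and B was therefore not established by these data.

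Levels of Sox9 were then compared with those of the other 9 genes over the 11 libraries, as log2 CPM, by permutation with adjustment over the 9 relations. By Pearson's r, 5 relations passed. Sox5 (r = 0.87, permutation p 0.00093, adjusted p 0.00558; rho = 0.72, adjusted p 0.145) and Col9a1 (r = 0.83, permutation p 0.00124, adjusted p 0.00558; rho = 0.64, adjusted p 0.177) followed Sox9 most closely. The other 3 were Matn4 (r = 0.71), Gdf5 (r = 0.70) and Runx2 (r = 0.68), each with a permutation adjusted p of 0.0371. Those of Matn4 and Gdf5 rest on 16 and 58 reads, most of the control reads in control 3, and on libraries without a read whose log2 CPM is set by the prior count, so they are no more than a record of these few reads. By Spearman's rho, 0 of 9 passed after adjustment.

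For the main collagen gene and the link protein gene no relation with Sox9 passed. For Col2a1 r was 0.40 (permutation p 0.22, adjusted p 0.283) and rho was 0. For Col11a1 r was 0.18 (adjusted p 0.64) and for Sox6 -0.15 (adjusted p 0.649). Hapln1 had a negative r of -0.45 (permutation p 0.164, adjusted p 0.246). Over all other genes tested the median r with Sox9 was 0.03, and 1.69% of them reached the r of Sox5, 3.75% that of Col9a1 and 11.9% that of Runx2.

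Over all libraries, the calls rested on the libraries with most Sox9. Without controls 3 and 1, the 2 farthest from the median of Sox9, 0 of 9 relations passed; leaving them out also narrows the range of Sox9. In those 9 libraries r was 0.49 for Sox5 (exact permutation p 0.183) and 0.53 for Col9a1 (exact permutation p 0.142), and for Col2a1 it was -0.50. Leaving out control 3 alone brought r to 0.77 for Sox5, 0.73 for Col9a1, 0.43 for Gdf5, 0.44 for Runx2 and 0.28 for Matn4, and 0 relations passed. Among the 6 mutants alone r was 0.80 for Col9a1 (exact permutation p 0.0431, adjusted p 0.388) and 0.15 for Sox5 (exact permutation p 0.778). No correlation was computed within the 5 controls.

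The relations were also taken on what remained after a fit of litter and genotype. On those residuals, which hold 6 degrees of freedom, r with Sox9 was 0.96 for Sox5 and 0.94 for Col9a1. It was 0.65 for Col11a1, 0.28 for Col2a1, 0.00 for Runx2 and -0.58 for Hapln1. Sox5 and Col9a1 thus still varied with Sox9 once both terms were taken out, and Runx2 did not. Such residuals hold differences between buds of 1 litter and group as well as changes of the mutant difference between litters. They are given as descriptions, since the 2 libraries of litter B, like those of litter C, share a single residual with opposite signs.

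**Figure D4:**
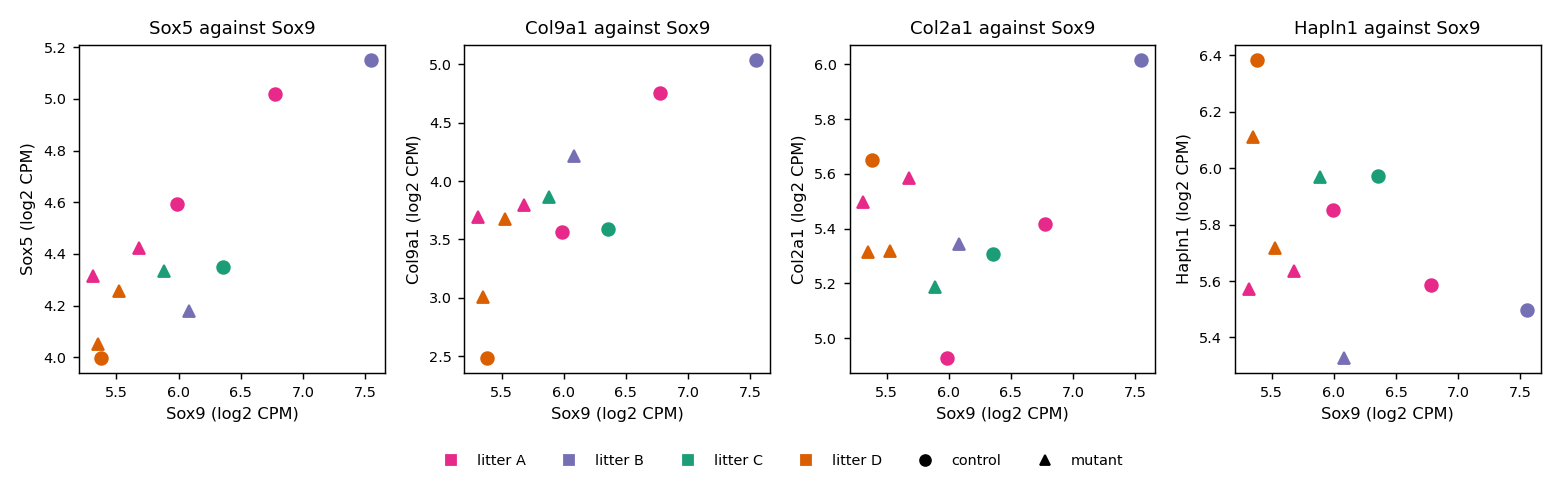
Log2 CPM of Sox5, Col9a1, Col2a1 and Hapln1 (vertical axes) against log2 CPM of Sox9 (horizontal axes) in 11 libraries, circles for controls, triangles for mutants and colour for litter. Controls 3 and 1 lie at the upper right for Sox5 (r = 0.87) and Col9a1 (r = 0.83), and neither Col2a1 (r = 0.40) nor Hapln1 (r = -0.45) has a relation past the test.

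Likeness to Sox9 over the 11 libraries was taken among 8550 genes with a mean of at least 10 CPM. Xist, Y-linked genes and predicted or clone-named genes were left out of the 5 genes named, here and for Col2a1. The 5 most alike of the rest were Trps1 (r = 0.981), Zfhx3 (r = 0.974), Zfp810 (r = 0.97), Prdm2 (r = 0.967) and Msantd4 (r = 0.966). Their r values are higher than that of Sox5, the closest of the 10. Trps1 is a zinc finger repressor active in growth plate cartilage, and Zfhx3 is a large homeodomain factor. Zfhx3 passed for mutant against control (log2 difference -0.50, edgeR adjusted p 0.049), and the other 4 did not. For Col2a1 the 5 most alike were Edn3 (r = 0.908), Spint2 (r = 0.902), Sostdc1 (r = 0.867), Pink1 (r = 0.861) and Zfp821 (r = 0.806), a list that shares no gene with that of Sox9. Over all 8550 genes the quartiles of r were -0.55 and 0.55 with Sox9 and -0.18 and 0.17 with Col2a1, so that values of r far from 0 were more common with Sox9.

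One measure of the libraries moved with Sox9. It is a T-run index, defined after the data had been seen. The index takes the median centred log2 CPM of 959 genes whose transcripts hold a run of at least 18 T. From this it subtracts that of 4232 genes with runs of at most 5. The index was 0.27, 0.13, 0.26, 0.25 and -0.15 in controls 1 to 5 and -0.12, -0.41, -0.18, -0.20, 0.10 and -0.04 in mutants 1 to 6. The 6 libraries with the highest index were the 6 with the highest Sox9 (6 of 6 shared). The longest T run of Sox9 itself is 18 bases, that of Sox5 is 13 and that of Col9a1 is 5. With the index as a covariate, an alternative added after the data had been seen, the Sox9 difference was -0.11 (edgeR adjusted p 0.898), Sox5 stood at 0.03 and Col9a1 at 0.64. The index is built from these same counts and was mostly higher in controls. The median log2 difference was -0.2 for the genes with long T runs and 0.06 for those with short ones. Fits with this covariate, here and below, therefore cannot separate the index from genotype. The part of this index in the Sox9 result was not tested further.

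Levels of genes that mark limb position or other tissues also varied between buds. The summed level of the 5 distal limb Hox genes (Hoxd11, Hoxd12, Hoxd13, Hoxa11 and Hoxa13), which come on as the bud grows out, was 18.2 to 138 CPM in controls and 33.2 to 137 CPM in mutants. Control 5 was the lowest library and control 3 the highest, and both also marked the ends of the control range of Sox9. Mutant 6, at 137 CPM, came close to control 3, with Sox9 at 67.7 against 187 CPM. Of the 6 libraries highest in this sum, 3 were among the 6 highest in Sox9. All 5 Hox genes had positive fitted differences (median 0.62), against a negative one for Sox9. None passed, and 3 had an unadjusted edgeR p under 0.05, against 21.4% of all genes. Sox9 is also made in somite and neural crest derivatives. The sclerotome and somite list (7 of 8 in the table, 5 tested, 0 called) summed to 44.4 to 78.8 CPM in controls and 42.9 to 57.8 CPM in mutants. It had 4 negative fits and 1 positive (median -0.23), with 0 at an unadjusted edgeR p under 0.05. The crest and Schwann precursor list (8 of 8, 6 tested, 0 called) summed to 56.1 to 81.4 and 36.3 to 58.5 CPM. Its 6 fits were all negative (median -0.49), with 3 at an unadjusted edgeR p under 0.05, against 21.4% of all genes. Control 3 was the highest library for both sums. The next highest was control 5, the control with the least Sox9, at 72.5 and 76.2 CPM. Single genes of these lists differed from the sums. Pax1 was 16.25 CPM in control 3 and 0.63 CPM in control 5, and Tfap2b was 56.8 and 22.6 CPM. Meox1, at 14.7 and 51.9 CPM, and Ngfr, at 9.43 and 34.4 CPM, were higher in control 5. The part of these cells in the Sox9 result was not tested.

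**Figure D5:**
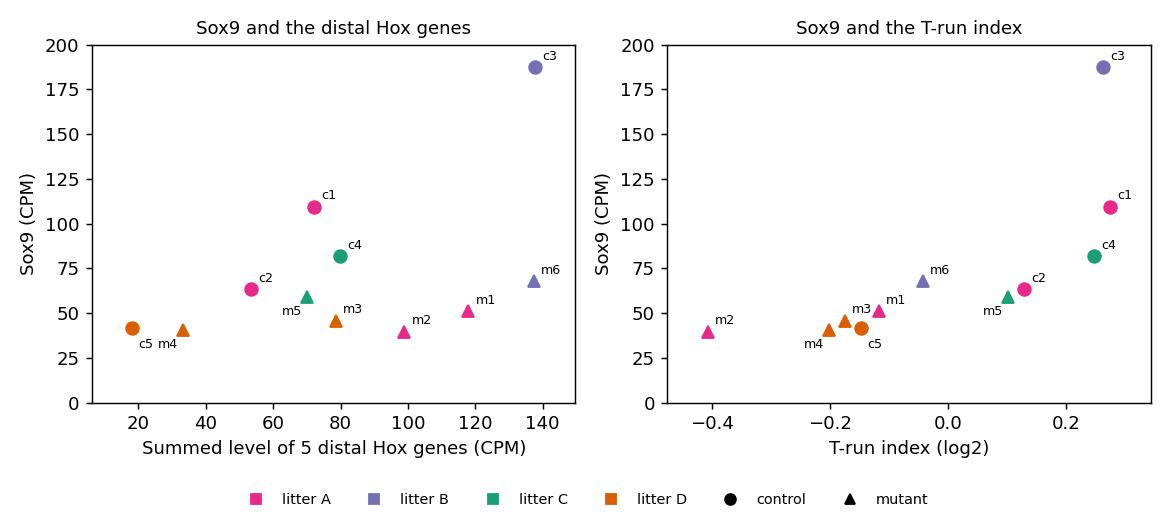
Sox9 level (CPM, vertical axes) against the summed CPM of 5 distal Hox genes (left) and against the T-run index on a log2 scale (right) in 11 libraries, labelled c1 to c5 for controls and m1 to m6 for mutants, with colour for litter. On the right, the 6 libraries of highest index are those of highest Sox9; on the left, control 5 (18.2 CPM) and control 3 (138 CPM) stand at the ends.

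Other cell types of the bud were read from whole lists. Contractile muscle genes summed to 42.8, 75.4 and 88.9 CPM in controls 1, 2 and 5 and to 12.1 and 8.08 CPM in controls 3 and 4. The 2 controls highest in Sox9 thus fell on different sides of that split. In mutants the sum was 9.61 to 14.2 CPM. Of the 8 genes, 3 passed, all lower in mutants, against 2.18% of all genes called. Each of the other lists had 0 called, apart from limb mesenchyme. Of 8 muscle precursor genes, 4 had an unadjusted edgeR p under 0.05, against 21.4% of all genes. In that list 4 fits were negative and 4 positive, and the median log2 difference was -0.45. All 8 red cell genes had positive fits (median 0.57, 0 at an unadjusted p under 0.05), and their summed level was 13090 to 33620 CPM in controls and 16400 to 56600 CPM in mutants, highest in mutant 2. Of 9 macrophage genes, 8 had positive fits (median 0.57, 1 at an unadjusted p under 0.05), with sums of 2.52 to 26.8 CPM in controls and 7.52 to 37.0 CPM in mutants. Surface ectoderm and ridge (10 tested) had a median of -0.19 and endothelium (8 tested) one of 0.06. Of 9 neural tube genes, Nes and Tubb3 were tested and not called, and the other 7 had 0 (Olig2) to 42 reads over all libraries; the list summed to 65.6 to 90.3 CPM in controls and 69.1 to 99.2 CPM in mutants. Of the limb mesenchyme list, 1 of 10 passed (Lhx9, lower), against 2.18% of all genes called. In this list 7 of 10 had an unadjusted edgeR p under 0.05, against 21.4% of all genes. Its fits were positive for 6 genes and negative for 4, with a median log2 difference of 0.05.

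The rest of the cartilage programme was read from 4 further lists. Of 21 other cartilage matrix genes, 19 were in the table and 7 were tested, with 0 called and a median log2 difference of 0.09. Those too low to test included Acan, the aggrecan core protein, with 24 reads over all libraries, Comp with 25, Col9a2 with 37, Col11a2 with 45, Col10a1 of hypertrophic cartilage with 4 and Matn1 with 1. Col2a1, by comparison, had 7891 reads in all. The few reads were uneven: control 3 was the highest library for Comp (0.491 CPM) and for Col9a2 (0.763 CPM). Acan was highest in mutant 1 (0.405 CPM), Col11a2 in control 1 (0.503 CPM), Col10a1 in mutant 3 (0.067 CPM) and Matn1 in mutant 2 (0.066 CPM). Col27a1, a fibrillar collagen of cartilage, had 9.71 to 12.2 CPM in controls and 12.6 to 20.6 CPM in mutants, without overlap. Its log2 difference of 0.59 (SE 0.14, higher in 4 of 4 litters) just missed the threshold (edgeR adjusted p 0.0504). It passed in 8 of 25 alternatives, among them DESeq2 (adjusted p 0.00511) and limma-voom (adjusted p 0.041). With the index as a covariate it was 0.29 (edgeR adjusted p 0.606). Matn3 stood at 0.18 and the small proteoglycan gene Fmod at -0.78 on the log2 scale (edgeR adjusted p 0.606 and 0.135).

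Among 12 condensation and early matrix genes, all tested, 1 fell and 0 rose, with a median of 0.10. Over all genes tested, 1.48% were called lower and 0.702% higher in mutants. The one was Ncam1, the adhesion molecule of condensing mesenchyme, at 181, 199.6, 178, 137 and 114 CPM in controls 1 to 5 and 97.1, 80.2, 111, 111, 103 and 114 CPM in mutants 1 to 6. Control 5 exceeded the highest mutant only narrowly. Its log2 difference was -0.63 (SE 0.14, edgeR adjusted p 0.0464), with mutants lower in 4 of 4 litters. Ncam1 has a T run of 21 bases, and with the index as a covariate its difference was -0.18 (edgeR adjusted p 0.656). The call was lost in 16 of 25 alternatives in all, among them the fit without the litter block (edgeR adjusted p 0.0549) and every fit that left out 1 library other than control 5. Cdh11, the mesenchymal cadherin, stood at 0.16 (SE 0.15) and Fn1, fibronectin, at -0.05 (SE 0.12) on the log2 scale, neither past the test.

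Of 12 joint interzone genes, 11 were tested and 0 passed for genotype (median -0.02). Osr1, Osr2 and Trps1, the highest per kilobase, had log2 differences of 0.28, -0.62 and -0.29. Osr2, a regulator of joint formation, ran from 1.61 CPM in control 5 to 31.5 CPM in control 3, again the ends of the Sox9 range among controls, and from 2.68 to 8.16 CPM in mutants. One gene of the list, Enpp2, passed for litter (edgeR adjusted p 0.0498), against 0.0885% of all genes.

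The 28 chondrogenic regulators, 25 of them tested, had 0 called and a median of 0.04, with 14 positive and 11 negative. Sox11, a Sox factor of mesenchymal progenitors, was the highest of them per kilobase. It ran from 1760 to 4112 CPM in controls and from 1128 to 2539 CPM in mutants, and its log2 difference of -0.71 (SE 0.17, lower in 4 of 4 litters) had an edgeR adjusted p of 0.0546. It has a T run of 25 bases, and its difference was -0.03 with the index as a covariate. Bmp4, an inducer of condensation, stood at 0.21 (SE 0.09) and Cbfb, the RUNX partner, at 0.16 (SE 0.08) on the log2 scale, and neither passed (edgeR adjusted p 0.223 and 0.276).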

How the data were processed

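The deposited table holds unnormalized counts of reads, 1 row for each gene name, produced by the authors using featureCounts v1.4.6-p4 on mm10 with GENCODE M9, mapping quality at least 10 and no strand option, per the file headers. STAR 2.5.4b is named in the submitters' processing notes. Libraries were made after ribosomal RNA depletion, from RNA of integrity number 8 or more, per the labels' protocols. The header command lists 12 alignment files, and the table used here has 11 sample columns. Reads over exons of several genes were not separated. T runs and exon overlaps were taken from a later GENCODE release than M9, and gene models can differ between the releases.

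Counts were fitted with edgeR 4.0.16 (limma 3.58.1, R 4.3.3): filterByExpr (15821 genes, 99.9% of counts), TMM, litter as a block plus genotype, the two-sided quasi-likelihood test and Benjamini-Hochberg adjustment over all genes, with a threshold of 0.05. Litter and interaction terms were tested likewise, 3 coefficients together. Log2 CPM used a prior count of 2. Relations with Sox9 used 100000 permutations, or exact ones under 10 libraries. Each embryo was taken as 1 replicate. The least different of 25 pairs of libraries within a group had a chi-square of 7.39 per degree of freedom, so none counted as a duplicate.

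The pairing by litter comes from the titles. Deviations from group means correlated at -0.16 to 0.37 (median 0.13) in 8 mutant-control pairs of 1 litter and at -0.33 to 0.17 (median -0.02) in 22 pairs of different litters.

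Named were Gmnn, the 10 genes and the 5 genes most like Sox9 and Col2a1. Each pathway list added up to 6 genes past the threshold and the 3 highest per kilobase. Enpp2, Lhx9, Tbx5, Pax1, Tfap2b, Meox1, Ngfr and the genes too low to test were named after their values were seen. Members and lists were chosen with earlier results of these data known. Alternatives covered scaling, filters, DESeq2 1.42.0, limma-voom, the block, and libraries and litters left out.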

Additional observations from a re-analysis of the deposited data

Results flagged for a closer look

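Matn4 in control 3 lay far above the other 4 controls: its log2 CPM was -0.84 and the next highest control stood at -2.39, a gap of 0.913 of the range of the group. The value rests on 8 reads (0.436 CPM), against 1 read in each other control. Over 11 genes and both groups, 44 highest or lowest values were examined, 1 was this far from the rest, and chance gives about 1.1. The same library was also the highest for Sox9, Sox5, Col2a1, Col9a1, Runx2 and Gdf5, without meeting that criterion.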

How the results depend on the processing

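Of 25 alternatives, 23 left 0 of the 10 genes past the threshold for genotype. The number was 1 (Sox9) without the filter on low counts (log2 difference -0.73, edgeR adjusted p 2.26e-12) and without control 5, a leave-one-out range of 0 to 1. Without that filter the litter terms gave 5 genes and the interaction 2. The sign held in every alternative for Sox9, Sox6, Col11a1, Hapln1 and Runx2. Over all genes the count for genotype was 345. It was 1566 without the filter, 550 with at least 1 CPM in 5 libraries and 1194 with DESeq2. Without the replicate block it was 13, with 9 higher, against 111 of 345 with it. Leaving out 1 library gave 1 to 850. It was 1 without litter C, 148 without litter D, 3 without litter B and 9 without litter A. In a fit that also held the T-run index it was 2, and without controls 3 and 5 it was 4, 2 settings added once results were known. Under upper-quartile scaling 43.1% of calls were higher, and the median of all genes moved by 0.04. The block decided the calls of Gmnn (adjusted p 0.0549 without it) and Ncam1; it changed no call of the 10 genes.

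Some log2 differences changed sign. Col2a1 (0.03) and Col9a1 (0.04) did so without control 3, without mutant 6 and without litter B. Col2a1 was 0.19 without controls 3 and 5, and Col9a1 was 0.14 without control 1 and 0.10 without litter A. Leaving out 1 library at a time gave -0.24 to 0.03 for Col2a1, -0.42 to 0.14 for Col9a1, -0.04 to 0.26 for Cdh11 and -0.17 to 0.07 for Fn1. With the T-run covariate Sox5 was 0.03, Col9a1 0.64, Fn1 0.35, Osr2 0.10, Trps1 0.05 and Bmp4 0.00. Without controls 3 and 5 Matn3 was -0.01 and Cdh11 -0.10. Cdh11 was -0.04 without control 5 or litter D. Fn1 was 0.01 without control 2, 0.07 without mutant 2 and 0.15 without litter A. The cause was not tested.

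Relations with Sox9 past the threshold numbered 5, and 0 without controls 3 and 1 or within the 6 mutants. They numbered 2 with a prior count of 0.5, and 0 to 5 with 1 library left out. Relations on residuals are not counted here, since the libraries of litters B and C do not give independent residuals. The r of Sox6 turned to 0.33 on residuals. That of Col2a1 was -0.50 without the 2 farthest libraries, -0.31 within mutants and -0.29 without control 3, and that of Col11a1 was -0.11 without control 5. Their ranges with 1 library left out were -0.29 to 0.53 and -0.11 to 0.41. Depth limited Gdf5 and Matn4, which had too few reads to test.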
